A study of Mus musculus with 6 samples.

Results

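Of the 8 genes described here, 7 encode enzymes and enzyme subunits of the methionine cycle and of transsulfuration, and the other, Ahcyl1, a relative of one of these enzymes. They were measured in B16F10, a pigmented melanoma line derived from a C57BL/6 mouse. They were taken by NCBI Gene identifier from a table of 16315 genes, and all 8 were listed in it and passed the filter for testing, an average of 0.5 FPKM or more (fragment numbers divided by transcript length and by the library's mapped total). One group of 3 libraries came from cells given vehicle, 0.05% DMSO, and the other group of 3 from cells given SAS at a labelled 500 (unit written as μm) for 24 h. SAS is named by these letters alone in the labels, and the series concerns inhibition of xCT, the chain of system xc- that imports cystine. The labels give no genetic change in either group, so every value describes one established tumour line in culture. The deposited columns call the vehicle libraries 0 h, so a day of culture and the compound cannot be told apart if that name means cells collected before incubation.

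In the methionine cycle, methionine adenosyltransferase joins methionine to ATP to make S-adenosylmethionine, the methyl donor of most methylation reactions. The spent donor, S-adenosylhomocysteine, is hydrolysed to homocysteine, which is either methylated back to methionine or passed into transsulfuration, where its sulfur is moved onto serine to make cysteine. Cells that cannot import cystine have transsulfuration as their own source of cysteine, the limiting amino acid of glutathione.

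Transcripts of the cycle and its side branch did not move as one block. The remethylation genes Mtr and Mtrr and the first transsulfuration gene, Cbs, rose with SAS, whereas Mat2b, Ahcy and the second transsulfuration gene, Cth, fell. Mat2a, the most abundant of the 8 in SAS, did not pass the test, and neither did Ahcyl1. With limma across 10615 genes, 6 of the 8 had a Benjamini-Hochberg adjusted p below 0.05, 3 in each direction, beside 37.4% of all genes tested (18.9% higher and 18.5% lower). The ranges of the groups did not overlap for 7 of the 8 genes, beside 49.4% of all genes tested. The median absolute log2 fold change was 0.336 for the 8 genes and 0.15 for all genes tested, and the signed medians were -0.07 and -0.01. The change in mean FPKM was largest for Cbs, at 68.4% above vehicle, and for Cth among the genes that fell.

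Ahcy and Mtrr had the lowest and highest log2 fold changes of the 8 on the log2(FPKM + 1) scale. Cbs and Ahcyl1 were the members with a match to a motif searched, and Ahcyl1 did not pass the test. The stretches of genome before the start sites of these 4 genes are shown. Each is the 250 bases before a start site in RefSeq, build GRCm38.p6, minus strand, read 5′ to 3′ toward the gene, with motif matches in capitals. The windows are those of Ahcy at chr2:155074498-155074747, Mtrr at chr13:68582170-68582419, Cbs at chr17:31637206-31637455 and Ahcyl1 at chr3:107696561-107696810.
Ahcy: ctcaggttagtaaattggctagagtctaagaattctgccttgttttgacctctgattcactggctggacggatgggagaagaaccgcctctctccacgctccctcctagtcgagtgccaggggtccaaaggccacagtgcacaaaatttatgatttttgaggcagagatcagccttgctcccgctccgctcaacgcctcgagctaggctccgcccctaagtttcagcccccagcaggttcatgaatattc
Mtrr: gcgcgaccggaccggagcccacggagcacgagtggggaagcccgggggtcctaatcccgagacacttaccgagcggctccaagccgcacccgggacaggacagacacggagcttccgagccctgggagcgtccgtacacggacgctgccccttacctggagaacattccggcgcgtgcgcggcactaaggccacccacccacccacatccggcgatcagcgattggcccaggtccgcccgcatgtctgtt
Cbs: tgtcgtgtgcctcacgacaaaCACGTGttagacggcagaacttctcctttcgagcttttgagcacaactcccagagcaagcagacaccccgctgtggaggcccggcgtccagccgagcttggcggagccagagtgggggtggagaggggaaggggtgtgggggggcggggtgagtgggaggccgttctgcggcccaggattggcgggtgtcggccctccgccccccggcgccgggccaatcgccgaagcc
Ahcyl1: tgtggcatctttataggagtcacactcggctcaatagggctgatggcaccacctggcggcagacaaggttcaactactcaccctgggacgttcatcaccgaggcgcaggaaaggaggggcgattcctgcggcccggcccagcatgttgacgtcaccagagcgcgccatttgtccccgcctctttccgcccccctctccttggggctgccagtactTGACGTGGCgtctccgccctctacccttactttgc
Windows were found for 7 of the 8 genes, all but Cth. The letter patterns searched on both strands, as a description with no test, were TGATGNAA, a composite site bound by ATF4, TGACNNNGC, the core of the antioxidant response element, and CACGTG, the E-box. The E-box in the Cbs window, at positions -229 to -224 from the start site, reads the same on both strands, and the letters were present in 6.02% of all 32851 windows of this length. In Ahcyl1, the capitals TGACGTGGC match the antioxidant response element core at -35 to -27, a pattern found in 10.2% of all windows. This Ahcyl1 window is the outermost of 3 listed for the gene, and the Mtrr window is the outer of 2. TGATGNAA was in 3.45% of all windows and in none of the 10 windows of these genes, which says only that these letters are not in the windows searched.

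FPKM is scaled to transcript length, so the levels of the genes can be set beside each other. In vehicle the order of mean FPKM was Ahcy, Mat2a, Ahcyl1, Mat2b, Mtrr, Cth, Mtr and Cbs, from 86.2 FPKM for Ahcy to 0.77 FPKM for Cbs. No neighbours in that order had overlapping ranges, although Ahcy was just 1.1 times Mat2a and Mtrr 1.09 times Cth. In SAS, Mat2a moved ahead of Ahcy, and Mtr and Cth had overlapping ranges with Mtr 1.08 times Cth. Mat2a, Mat2b, Ahcy and Ahcyl1 thus had higher transcript levels per length than the genes of both branches that use homocysteine. Among the genes tested, Mat2a had a mean above that of 88.4%, and Cbs above that of 7.98%.

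Mat2a (NCBI Gene 232087) encodes the catalytic subunit of the methionine adenosyltransferase found outside the liver. Its levels were 80.5, 79.23 and 75.85 FPKM in the vehicle libraries and 77.21, 80.6 and 77.29 FPKM in the SAS libraries. The groups overlapped throughout, with means of 78.5 ± 2.4 and 78.4 ± 1.93 FPKM (± is the SD over the 3 libraries of a group throughout). The log2 fold change of -0.003 (SE 0.05, limma adjusted p = 0.972) had a 95% interval that corresponds to 0.922-fold to 1.08-fold on the FPKM + 1 scale. Mat2b (NCBI Gene 108645), the regulatory subunit that binds the catalytic one, stood at 14.51, 13.73 and 13.72 FPKM in vehicle and at 11.88, 11.94 and 10.78 FPKM in SAS. Every SAS library was below every vehicle library. The mean fell from 14.0 ± 0.453 to 11.5 ± 0.653 FPKM (limma, log2 fold change -0.26 with SE 0.07, adjusted p = 0.00985). Without Vehicle replicate 1, Mat2b did not pass (limma adjusted p = 0.0526).

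Ahcy (NCBI Gene 269378) encodes S-adenosylhomocysteine hydrolase, which removes a product that inhibits methyltransferases. It was at 89.95, 84.97 and 83.67 FPKM in vehicle and at 64.65, 60.16 and 61.37 FPKM in SAS, with no overlap. In log2 terms Ahcy changed by -0.47 (SE 0.05, limma adjusted p = 0.000106), the lowest value of the 8 genes with the pseudocount of 1, and its absolute change was larger than that of 92.9% of genes tested. The order depends on the pseudocount: with 0.1, Cth was lower (-0.51 against -0.47 for Ahcy) and Cbs higher than Mtrr (0.68 against 0.48). Ahcyl1 (NCBI Gene 229709), a protein related to Ahcy that is known as a regulator of the inositol trisphosphate receptor and not as a hydrolase, gave 19.28, 19.84 and 19.33 FPKM in vehicle and 17.54, 17.48 and 17.89 FPKM in SAS. The groups were separate and each was tight, but the difference was small, at a log2 fold change of -0.14 (SE 0.06, limma adjusted p = 0.0752; 95% interval -0.26 to -0.01). Ahcyl1 passed when no low-value filter was applied (limma adjusted p = 0.025) and with quantile normalization (limma adjusted p = 0.0384).

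Both genes of remethylation rose. Mtr (NCBI Gene 238505) encodes methionine synthase, the cobalamin-dependent enzyme that moves a methyl group from methyltetrahydrofolate to homocysteine. Its levels were 3.12, 2.97 and 2.65 FPKM in vehicle and 3.84, 4.06 and 3.54 FPKM in SAS, so the lowest SAS library lay above the highest vehicle library. The mean rose from 2.91 ± 0.24 to 3.81 ± 0.261 FPKM, or 1.31-fold (limma, log2 fold change 0.30 with SE 0.08, adjusted p = 0.01). Mtrr (NCBI Gene 210009) encodes the reductase that restores methionine synthase when its cobalamin cofactor becomes oxidised. Mtrr was at 5.47, 5.7 and 5.37 FPKM in vehicle and at 7.5, 8.56 and 7.2 FPKM in SAS. The SAS libraries were again all higher and more spread than vehicle, with a 1.41-fold higher mean (limma, log2 fold change 0.42 with SE 0.08, adjusted p = 0.0014).

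The pair of transsulfuration genes moved in opposite directions. Cbs (NCBI Gene 12411), cystathionine beta-synthase, condenses homocysteine with serine and was the lowest of the 8 genes. It was listed at 0.79, 0.83 and 0.69 FPKM in vehicle and at 1.54, 1.16 and 1.19 FPKM in SAS, with SAS replicate 1 the highest. The mean rose from 0.77 ± 0.0721 to 1.3 ± 0.211 FPKM, a ratio of 1.68 (limma, log2 fold change 0.37 with SE 0.08, adjusted p = 0.00343). The fitted log2 fold change of so low a gene depends on the pseudocount of 1 added before taking logs. With a pseudocount of 0.1 the log2 fold change of Cbs was 0.68. Cth (NCBI Gene 107869), cystathionine gamma-lyase, cleaves cystathionine to release cysteine. Cth stood at 4.84, 5.08 and 5.3 FPKM in vehicle and at 3.49, 3.61 and 3.5 FPKM in SAS. Its 3 SAS values lay close together and below all vehicle values, and the mean in SAS was 0.696 times that in vehicle (limma, log2 fold change -0.42 with SE 0.07, adjusted p = 0.000702).

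**Figure D1:**
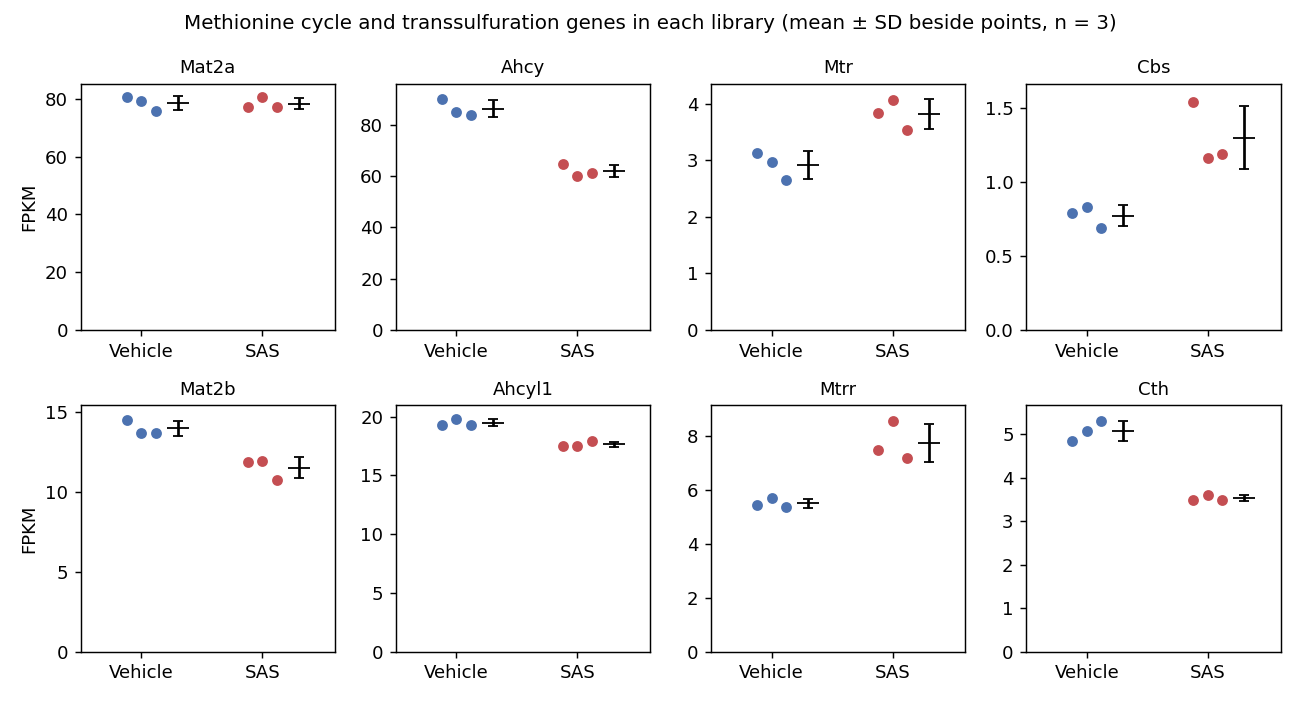
FPKM of each of the 8 genes (vertical axis, linear, from 0) in the 3 vehicle and 3 SAS libraries, 1 point per library, with the mean and SD beside the points. The groups are separate in every panel but Mat2a: Mtr, Mtrr and Cbs are higher in SAS, and Mat2b, Ahcy, Ahcyl1 and Cth are lower.

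**Figure D2:**
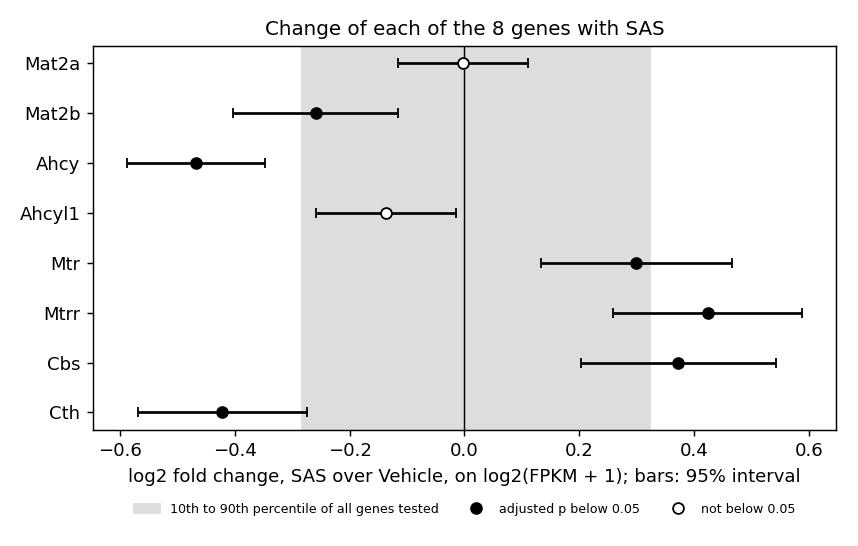
Log2 fold change of SAS over vehicle on the log2(FPKM + 1) scale for each gene, with its 95% interval from limma; filled points have an adjusted p below 0.05, and the grey band spans the 10th to 90th percentile of all genes tested, -0.28 to 0.32. Ahcy and Cth lie below the band, Mtrr and Cbs above it, and Mat2a is near 0.

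A ratio of 2 genes within a library does not depend on how that library was scaled. The FPKM ratio of Cbs to Cth was 0.163, 0.163 and 0.13 in the vehicle libraries and 0.441, 0.321 and 0.34 in the SAS libraries. The geometric mean of this ratio was 0.151 in vehicle and 0.364 in SAS, a 2.4-fold difference with no pseudocount (1.27 on the log2 scale, and 0.79 with a pseudocount of 1), and Cth remained the more abundant transcript in each library. The ratio of Mat2a to Mat2b had a geometric mean of 5.61 in vehicle (range 5.53 to 5.77) and 6.8 in SAS (range 6.5 to 7.17). The ratio of Ahcy to Ahcyl1 went the other way, from 4.42 (range 4.28 to 4.67) to 3.52 (range 3.43 to 3.69). For these 3 ratios the groups did not overlap, and each gave p = 0.1 in an exact two-sided permutation test, the smallest p that 3 against 3 libraries can give (0.133 after Benjamini-Hochberg adjustment over the 4 ratios tested). The ratio of Mtr to Mtrr overlapped between groups, at 0.493 to 0.57 in vehicle and 0.474 to 0.512 in SAS (exact permutation p = 0.2). With a pseudocount of 1 its log2 difference was -0.12 with an exact permutation p of 0.1, the same smallest p as for the other ratios, so these p-values do not set it apart from them.

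**Figure D3:**
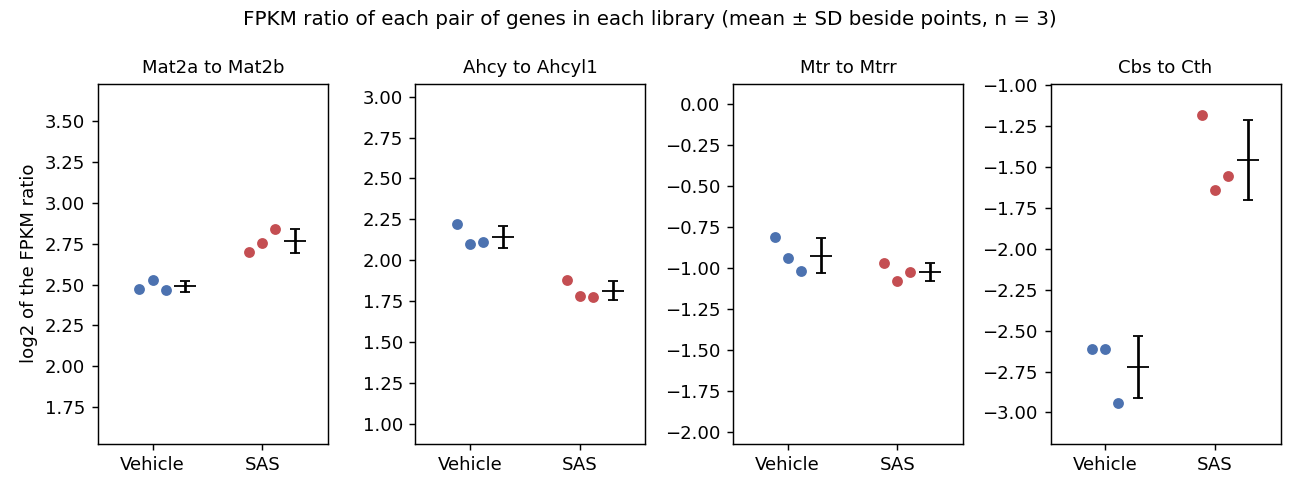
Log2 of the FPKM ratio of each of the 4 pairs of genes (vertical axis, the same span in each panel) in the 3 vehicle and 3 SAS libraries, with the mean and SD beside the points. The Cbs to Cth ratio differs most between groups, by 1.27 on the log2 scale, and the Mtr to Mtrr ratio overlaps.

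Profiles of log2(FPKM + 1), each less its vehicle mean, were compared by their distance over the 6 libraries. The comparison took the 6880 genes that averaged 5 FPKM or more, with unnamed gene models left out. The genes most like Mtrr were Fkbp15 (distance 0.0672), Bhlhe40 (0.0947) and Snx33 (0.0962). The genes most like Ahcy were Cars2, the mitochondrial cysteinyl-tRNA synthetase (distance 0.0761), Shmt1, the cytosolic serine hydroxymethyltransferase (0.103), and Niban2 (0.112). Cars2 fell from 16.6 ± 0.843 to 11.7 ± 0.0265 FPKM and Shmt1 from 25.1 ± 0.922 to 18.4 ± 0.572 FPKM, beside 86.2 ± 3.31 and 62.1 ± 2.32 FPKM for Ahcy. The shift between the groups is part of every such profile, so these genes were in effect picked for a like shift.

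Other genes of the cycle were fewer and mixed in direction. Of 8 listed, 6 were in the table and 4 were tested, of which 1 rose and 2 fell, beside 18.9 and 18.5% of all genes tested. Mat1a, the liver form of the adenosyltransferase, was listed at 0 in each vehicle library and at 0.01 FPKM or below in SAS, and Gnmt, a glycine methyltransferase of liver, stayed at or below 0.19 FPKM in each library. Adk, adenosine kinase, which removes the adenosine that Ahcy releases, fell from 19.3 ± 0.882 to 14.9 ± 1.65 FPKM (log2 fold change -0.36, limma adjusted p = 0.00454; -0.23 with the correction for GC content and length). Ahcyl2, a close relative of Ahcyl1, was at 6.45 ± 0.576 FPKM in the vehicle libraries and 7.76 ± 0.396 FPKM in the SAS libraries (limma adjusted p = 0.0321). The call of Ahcyl2 was lost without Vehicle replicate 1 or 3 (limma adjusted p = 0.0817 and 0.105) or SAS replicate 1 or 2 (0.0721 and 0.0848). It was also lost with no low-value filter (limma adjusted p = 0.0782).

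Cobalamin is the cofactor of methionine synthase, and among 10 genes of its uptake and processing, all tested, 6 rose and 0 fell, beside 18.9 and 18.5% of all genes tested. Their median log2 fold change was 0.22. Tcn2, the carrier that brings cobalamin to cells, rose from 60.3 ± 6.94 to 95.7 ± 10.6 FPKM (log2 fold change 0.66, limma adjusted p = 0.000292). Abcd4 and Lmbrd1, which act together to release cobalamin from the lysosome, rose from 5.3 ± 0.669 to 8.72 ± 0.993 FPKM (log2 fold change 0.63) and from 7.34 ± 0.574 to 9.86 ± 0.96 FPKM (log2 fold change 0.38). Abcc1, an exporter that also carries cobalamin out of cells, rose from 9.48 ± 0.115 to 12.05 ± 1.34 FPKM. Mmachc, which strips cobalamin of its upper ligand, had 8.0 ± 0.779 and 7.56 ± 0.493 FPKM and did not pass (limma adjusted p = 0.521), nor did the receptor Cd320 at 17.1 ± 2.14 and 14.5 ± 1.61 FPKM (limma adjusted p = 0.0943). The mitochondrial pair Mmaa and Mmab, which serve the other cobalamin enzyme, methylmalonyl-CoA mutase, also rose, while the mutase gene Mmut did not pass (limma adjusted p = 0.13).

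Outside the 8 genes, those listed for cysteine breakdown or hydrogen sulfide handling showed no call. Of 11 listed, 8 were tested with limma, and 0 rose and 0 fell at the adjusted threshold, which 37.4% of all genes tested passed. At an unadjusted p below 0.05, 1 of the 8 passed. Mpst, which takes sulfur from mercaptopyruvate, was at 40.7 ± 0.826 FPKM with vehicle against 39.9 ± 0.729 FPKM with SAS (log2 fold change -0.03, 95% interval -0.14 to 0.09). Csad, a taurine synthesis enzyme, was at 12.7 ± 0.384 and 12.7 ± 0.02 FPKM. Cdo1, the cysteine dioxygenase, was at or below 0.11 FPKM in each library.

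Downstream of S-adenosylmethionine, 5 of 8 genes of polyamine synthesis and methionine salvage fell and 0 rose, beside 18.5% and 18.9% of all genes tested. Srm, spermidine synthase, was at 187 ± 6.9 FPKM with vehicle against 136 ± 6.95 FPKM with SAS, and Amd1, which decarboxylates S-adenosylmethionine, at 18.3 ± 1.63 and 12.5 ± 1.53 FPKM. Mtap, which opens the salvage of methylthioadenosine back to methionine, fell from 98.7 ± 8.83 to 75.5 ± 4.55 FPKM (log2 fold change -0.38, limma adjusted p = 0.00203), and the later salvage enzyme Enoph1 from 19.0 ± 0.722 to 14.7 ± 0.983 FPKM. The salvage genes Mri1, Apip and Adi1 did not pass, at log2 fold changes of 0.12, 0.07 and 0.00.

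Of 21 listed methyltransferases, which turn S-adenosylmethionine into the substrate of Ahcy, 20 were in the table and tested, and 11 fell and 1 rose (all genes tested, 18.5% lower and 18.9% higher). Their median log2 fold change was -0.22. Ezh2, which methylates lysine 27 of histone H3, fell from 29.0 ± 2.11 to 20.2 ± 1.81 FPKM (log2 fold change -0.50, limma adjusted p = 0.000535), the DNA methyltransferase Dnmt3b from 3.75 ± 0.215 to 2.44 ± 0.176 FPKM and the arginine methyltransferase Carm1 from 81.8 ± 4.74 to 63.7 ± 2.74 FPKM. Nnmt, which methylates nicotinamide, was the gene that rose, from 13.5 ± 1.08 to 17.8 ± 1.01 FPKM (log2 fold change 0.38, limma adjusted p = 0.00209).

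Mat2a mRNA is known to be controlled after transcription, and METTL16 is the enzyme that methylates hairpins in it. Of 5 genes of that control, 1 rose and 2 fell, against 18.9% and 18.5% of all genes tested. Mettl16 was at 12.2 ± 1.39 FPKM with vehicle against 11.8 ± 0.507 FPKM with SAS (log2 fold change -0.04, limma adjusted p = 0.726). Nudt21, a factor in polyadenylation site choice, fell from 114 ± 1.71 to 96.4 ± 6.37 FPKM (limma adjusted p = 0.00701). The reader Ythdc1 was at 8.92 ± 0.63 and 7.34 ± 0.889 FPKM (limma adjusted p = 0.039) and the demethylase Alkbh5 at 23.9 ± 0.567 and 27.6 ± 2.08 FPKM (limma adjusted p = 0.0347). The call of Ythdc1 was lost without Vehicle replicate 1 or 2 (limma adjusted p = 0.116 and 0.129) or SAS replicate 1 or 3 (0.104 and 0.123). With the correction for GC content and length, the log2 fold change of Ythdc1 was -0.11 in place of -0.25 (limma adjusted p = 0.259, and 0.215 with that correction and the replicate block). The call of Alkbh5 was lost without Vehicle replicate 1, 2 or 3 (limma adjusted p = 0.0944, 0.064 and 0.0831) or SAS replicate 2 or 3 (0.112 and 0.106). With no low-value filter, Ythdc1 and Alkbh5 both lost their calls (limma adjusted p = 0.12 and 0.0746). Scaling to a common FPKM sum had the same outcome (limma adjusted p = 0.0578 and 0.0555).

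Serine supplies the carbon skeleton of cysteine in transsulfuration and, through folate, the methyl group for remethylation. Of 9 genes of this supply, 2 rose and 6 fell, where 18.9% of all genes tested rose and 18.5% fell. Mthfd2, Psat1, Shmt1 and Shmt2 fell, with log2 fold changes of -0.63, -0.46, -0.43 and -0.42, and the first serine synthesis enzyme Phgdh rose by 0.24 on the same scale.

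Among 8 genes that carry methionine and other neutral amino acids or the partner chain of such carriers, 1 rose and 2 fell, a share called near the 37.4% of all genes tested. Slc43a2, a facilitative carrier of methionine, leucine and phenylalanine, rose from 2.8 ± 0.46 to 6.06 ± 0.974 FPKM (log2 fold change 0.89, limma adjusted p = 0.000156). Slc38a2, a sodium-coupled carrier, fell from 37.5 ± 3.82 to 22.8 ± 3.57 FPKM (log2 fold change -0.70, limma adjusted p = 0.000491). Slc7a5, the large carrier of bulky neutral amino acids, was at 125 ± 5.59 and 105 ± 15.6 FPKM with overlapping ranges (limma adjusted p = 0.0421). That call was lost when any single library other than SAS replicate 3 was left out (limma adjusted p = 0.058 to 0.121). With all libraries it was lost with no low-value filter (limma adjusted p = 0.169), size factors (0.0543), no trend option (0.0574) or array weights (0.0817).

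Cth is among the genes that ATF4, the transcription factor of the amino acid response, is known to induce. Of 8 genes listed for ATF4 and its response, 1 rose and 5 fell, with 18.9% higher and 18.5% lower over all genes tested. Atf4 itself was at 383 ± 13.9 FPKM with vehicle against 333 ± 11.4 FPKM with SAS (log2 fold change -0.20, limma adjusted p = 0.0131), beside a log2 fold change of -0.42 for Cth. Trib3, Chac1 and Ddit3 had log2 fold changes of -0.95, -0.94 and -0.61, and Atf5 one of 0.95. Asns and Ddit4 did not pass, at log2 fold changes of 0.10 and 0.05 (limma adjusted p = 0.137 and 0.641). For Asns, every SAS library was above every vehicle library. Whether the change of Cth is tied to ATF4 was not tested.

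**Figure D4:**
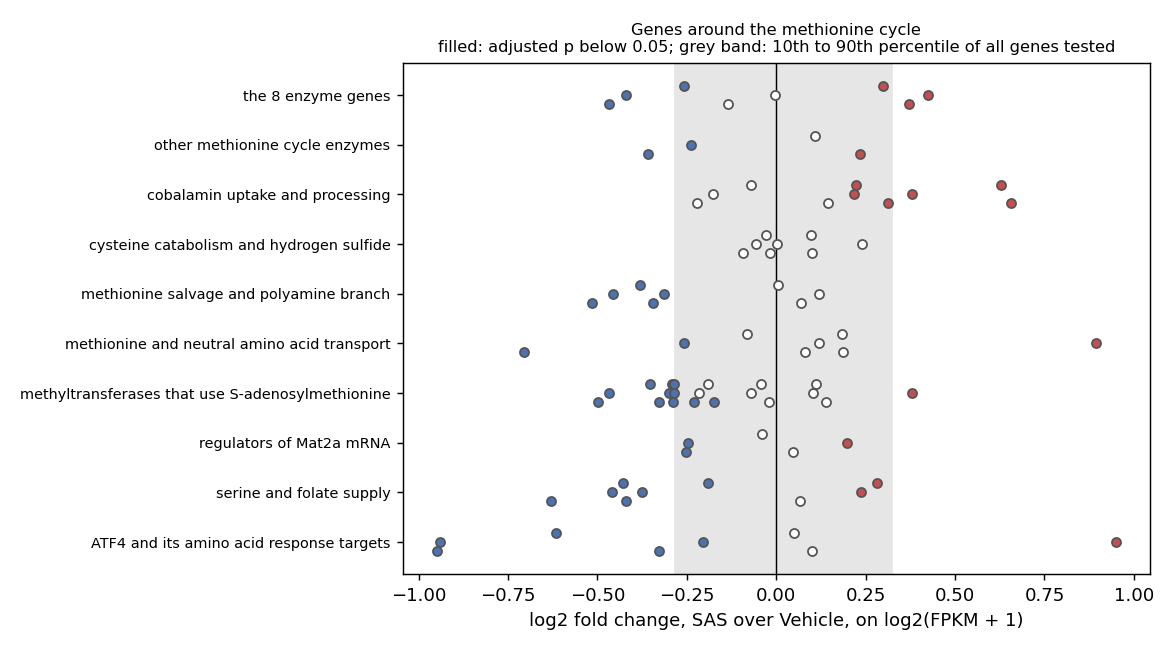
Log2 fold change of SAS over vehicle (horizontal axis, on log2(FPKM + 1)) for the tested genes of each list, 1 point per gene, red or blue where the adjusted p is below 0.05 and white otherwise; the grey band spans the 10th to 90th percentile of all genes tested. No filled point is on the lower side in the cobalamin list, none is on the upper side in the salvage and polyamine list, and the cysteine catabolism list has no filled point.

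In bulk RNA, fewer cells of a type and less RNA per cell cannot be told apart. The 7 pigment cell markers were present, with summed levels of 7414 to 8362 FPKM in vehicle and 8730 to 10638 FPKM in SAS, and 5 of 7 rose, beside 18.9% of all genes tested. Of the 5, Pmel (log2 fold change 0.33, limma adjusted p = 0.0366) lost its call without Vehicle replicate 1 or 2 (0.117 and 0.122) or SAS replicate 3 (log2 fold change 0.20, adjusted p = 0.129). Its call was also lost with the correction for GC content and length (limma adjusted p = 0.0544) and with no low-value filter (0.173). Of 7 leukocyte markers, 3 were in the table, with summed levels of 2.47 to 3.02 FPKM in vehicle and 4.72 to 4.92 FPKM in SAS. Of these, Cd68 rose from 2.26 ± 0.262 to 3.97 ± 0.0404 FPKM and Lyz2 from 0.47 ± 0.0173 to 0.86 ± 0.114 FPKM. The 5 fibroblast and endothelial markers in the table summed to 1.21 to 1.42 FPKM in vehicle and 0.87 to 0.99 FPKM in SAS, and 1 of them was tested, Col1a2, which fell from 0.747 ± 0.0808 to 0.397 ± 0.0306 FPKM. The part of any of these in the values above was not tested. Libraries of one group had Pearson correlations of 0.998 to 0.999 over genes for log2(FPKM + 1), and libraries of different groups 0.994 to 0.996; genes are not independent replicates.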

How the data were processed

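Total RNA of B16F10 cells was sequenced as BGISEQ-500 libraries, per the labels' protocols. One table was deposited, in FPKM per the file headers, rounded to 2 decimals and with a column for each library. The submitters' processing notes list FastQC, HISAT and Bowtie2, with no version or role; the program behind FPKM, its build and its annotation: not given in the sources used here. SAS columns are those named 24 h, a time that the treatment label gives for SAS alone; the 0 h columns are vehicle by elimination. Whether replicates are separate cultures is not in the labels, and p-values therefore cover the spread between these libraries only, which may be technical. Replicate numbers were not taken as pairs: deviations of same-numbered libraries from their group means correlated at -0.08, 0.145 and 0.234. Those of vehicle and SAS libraries with different numbers correlated at between -0.406 and 0.347.

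Fragments behind the values are unknown, and FPKM sums (590238 to 617275 in a library) are no measure of depth. Among 31 short genes at low levels, the values of 3 were whole multiples of a step in every library (tolerance 0.15 steps), so no reads were recovered and no count test was run. At most 0.848% of tested genes had identical values in any pair of libraries. Log2 fold changes of single genes and their p-values come from limma 3.58.1 (R 4.3.3, trend option) fitted to log2(FPKM + 1), a scale that understates the change of low genes. The limma fit took the 10615 genes that averaged 0.5 FPKM or more, two-sided, adjusted by Benjamini-Hochberg over all of them at a threshold of 0.05. Folds and percent changes of means were taken from mean FPKM, and differences of gene ratios from log2 FPKM with no pseudocount unless one is named. The fit was also run on simulated data with known changes and noise drawn separately for each gene. The outcome of that run is not given here, so it says nothing about the calls above. Gene names come from RefSeq GRCm38.p6. The 8 genes and the lists were chosen with earlier results of these data known. All 8 are named, as are up to 4 genes of each pathway list that pass with the largest absolute log2 fold change, and the 3 genes nearest in profile to the members with the highest and lowest changes (a gene that this rule takes is not reported here); a few more list genes (such as Mat1a, Mmachc, Mpst, Mri1, Phgdh and Atf4) were named after their values were seen. Python 3.11.15, pandas 2.3.3, scipy 1.17.1 and matplotlib 3.10.9 made the other values and plots. How reads shared by near-identical copies were assigned is unknown here.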

Additional observations from a re-analysis of the deposited data

How the results depend on the processing

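The alternatives were pseudocounts of 0.1 and 0.5 (also 1 for the ratios), other filters (none, or 5 FPKM), other scalings (size factors, a common FPKM sum, quantiles), a replicate block, other limma options (no trend, robust estimation, array weights), a correction for GC content and length (GENCODE M21, 99% of tested genes), that correction with the block, and each library left out. Of 149 re-estimates of the 8 genes' changes, 137 kept direction and side of the threshold. Mat2b lost its call without Vehicle replicate 1 (adjusted p = 0.0526), and Ahcyl1 passed in 2 settings named above. Mat2a, never called, changed sign around 0: 0.0041 with size factors, 0.0029 with a common sum, 0.00095 with quantile normalization, 0.0499 with the GC and length correction (with or without the block), and between -0.0272 and 0.0152 with 1 library left out (upward in 4 of these 6). With the filter at 5 FPKM, 1 of the 8 genes rose and 2 fell, since Mtr, Cbs and Cth were then not tested. With the replicate block, 4345 genes passed in place of 3969, and 3 of the 8 genes rose and 3 fell, as before; the block changed no call among the 8. With 1 library left out, 2899 to 3768 genes passed. The difference in the log2 Cbs to Cth ratio was 1.27 and lay between 0.794 (pseudocount 1) and 1.36 in all alternatives. Of 678 re-estimates of the list genes that the naming rule took, 39 lost a call and none changed sign. List genes named outside that rule, such as Mmaa, Mmab, Phgdh and Atf4, were not re-estimated. Values with 2 decimals and 3 libraries per group limit what can be seen for Cbs and lower genes.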
